A study of Arabidopsis thaliana with 14 samples.

Results

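The genes described here encode small secreted peptides and defensin-like proteins of Arabidopsis thaliana, measured in root tips on ATH1 arrays, where each gene is read by a probe set of short probes. They were chosen by name: each has a probe set annotated to exactly 1 gene whose symbol starts with PDF, LCR, SCRL, RALFL, CLE, DVL, IDL or GASA followed by a digit, and AT5G59845, a gene of the gibberellin-regulated GASA family that the reference files give no symbol, was added. The rule found 33 genes, each with 1 probe set, of 13350 genes that a probe set names alone, and all 33 matched a RefSeq locus. No gene with a SCRL, DVL or IDL symbol, or with GASA and a digit, was found, so 4 of the 8 prefixes had no member. The annotation names no gene for 8794 of the 22810 probe sets, so genes of these families read by such probe sets would be missed. The annotation did not bear out the grouping for PDF1A and PDF1B, whose prefix stands for peptide deformylase: these enzymes remove the formyl group from proteins newly made in organelles and are not defensins. The other 31 genes are 4 PDF1 defensins (LCR67, PDF1.2, PDF1.2b and PDF1.4), 6 PDF2 defensins (PDF2.1, LCR69, LCR68, LCR66, PDF2.5 and LCR72), 3 further LCR genes, 11 RALFL genes, 6 CLE genes and AT5G59845.

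All 14 samples came from AtIPT8/pga22 seedlings of the Wassilewskija accession, for which the labels give a T-DNA knock out mutation in IPT8, a gene of cytokinin synthesis. From general knowledge of the line, IPT8 is put under an estradiol-inducible promoter in it. Seedlings grown for 7 days on vertical plates received liquid medium alone (control), medium with 5 µM 17-beta-estradiol, or medium with 5 µM trans-zeatin, a cytokinin, and the terminal 5 mm of the primary roots was taken after 12 or 24 h. There were 3 control and 3 estradiol arrays at 12 h and 2 arrays in each of the other 4 groups. Every group, controls included, carried the same genotype, so the action of estradiol itself and that of the induced gene cannot be told apart, and no named probe set measured IPT8. How many root tips made up a sample, and whether replicates were separate cultures, is not given in the sources used here, so p-values measure only the spread between these samples, and the number of arrays limits the precision.

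Defensins are small, cysteine-rich secreted proteins that act mostly against fungi, and PDF1.2 is widely used as a marker of jasmonate and ethylene defence signalling. RALF peptides bind receptor kinases of the FERONIA family at the cell wall, raise the apoplastic pH and restrain root growth. CLE peptides are short signals cut from larger precursors that regulate stem cells through leucine-rich-repeat receptor kinases, and the gibberellin-regulated GASA proteins are cysteine-rich proteins linked to growth and hormone response.

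The deposited signals are intensities on a linear scale whose trimmed mean is 100 on every array. A signal above 23.0, the 40th percentile of all signals, was taken as above background, since no detection calls were used. Signals of different probe sets are not compared as transcript levels, and brightest below refers to the probe set alone. Rank correlations were 0.944 to 0.963 between replicates and 0.917 to 0.963 between arrays of different groups. The ratio of 3′ to 5′ actin signal, a measure of RNA and label integrity that was also tried as a covariate, was 3.23 to 4.93 in 12 h controls against 2.37 to 3.31 under either 12 h treatment, and 6.24 to 6.44 in 24 h controls against 3.71 to 4.85 under treatment, so it was lower under treatment at 24 h and overlapped slightly at 12 h. A second pair of actin probe sets gave 25.2 to 29.5 in 12 h controls against 12.9 to 20.5 under treatment, but at 24 h it ran the other way, with 18.9 to 25.7 in controls against 24.1 to 33.6. The ubiquitin ratio overlapped at 12 h (1.93 to 2.28 in controls, 1.81 to 2.37 under treatment) and was 2.91 to 2.95 in 24 h controls against 2.05 to 2.45 under treatment. The GAPDH ratio was 0.948 to 1.26 against 0.685 to 1.11 at 12 h and 1.43 to 1.88 against 1.20 to 1.38 at 24 h. A pair of 12 h arrays, replicate 3 of the control and replicate 1 of estradiol, lay away from the others (the outlying arrays below) on the second principal component, which held 13.6% of the variance. Probe sets with 1 named gene were at hand for few tissue markers: the lists for root cap, endodermis, stele and green shoot tissue had none, and the meristem marker AGL42 stayed below background on all arrays (highest signal 16.7). The root hair expansins EXPA7 and EXPA18, summed, had signals of 73.1 to 157 in the control 12 h arrays. After 12 h of estradiol the sum was 57.1 to 106, and after 12 h of zeatin 59.5 to 83.4. At 24 h it was higher under treatment, at 48.2 to 61.6 in controls, 64.7 to 85.3 after estradiol and 82.1 to 91.2 after zeatin. Neither gene was called against control. The 3 probe sets of the lateral root list, summed, had 107 to 179 in the control 12 h arrays, 64.1 to 94.9 after 12 h of estradiol and 68.7 to 77.6 after 12 h of zeatin. At 24 h that sum was 191 to 217 in the controls, 59.2 to 74.6 after estradiol and 42.1 to 65.1 after zeatin. Its members PUCHI and LBD16, transcription factors of early lateral root formation, fell after 24 h of estradiol and of zeatin, LBD16 by 1.30 and 1.59 on the log2 scale and PUCHI at least 2.67-fold in both, where its treated arrays were all below background (adjusted p = 0.012 and 0.0031 for LBD16, 0.01 and 0.0012 for PUCHI). PUCHI also fell after 12 h of zeatin, to below background on both arrays (adjusted p = 0.0074), by the test described below. The part of this shift in the results below was not tested, and in whole root tips fewer cells of a type and less RNA per cell cannot be told apart.

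Of the 33 genes, 19 were above background on every array of at least 1 group, 12 of them in all 6 groups and 7 in some, and the same 19 passed the filter for testing. The other 14 were not above background on every array of any group, and their highest signals lay between 6.07 and 30.4. Among the 31 genes of secreted peptides, 17 passed. By family the number above background in at least 1 group was 4 of 6 PDF2 defensins, 3 of 4 PDF1 defensins, 0 of 3 further LCR genes, 6 of 11 RALFL genes, 3 of 6 CLE genes, AT5G59845 and both deformylases. The same 4 PDF2 defensins were above background in all 6 groups, as were 5 RALFL genes, CLE41, CLE44 and PDF1A. The PDF1 defensins varied: 0 were above background in the control 12 h group, 1 in each 12 h treatment, 3 in the control 24 h group, 0 after 24 h of estradiol and 1 after 24 h of zeatin. Over all 33 genes, 13, 15 and 15 were above background in the control, estradiol and zeatin groups at 12 h, and 17, 15 and 14 at 24 h. The share of all probe sets above background was 54.8%, 54.7% and 55.3% at 12 h and 59.0%, 56.3% and 56.4% at 24 h. Among probe sets with 1 named gene it was 48.9%, 49.1% and 49.6% at 12 h and 53.6%, 50.5% and 50.8% at 24 h. Both shares, like the count of the 33 genes, were highest in the control 24 h group. The rule asks for every array of a group, so it was stricter for the 12 h groups of 3 arrays.

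**Figure D1:**
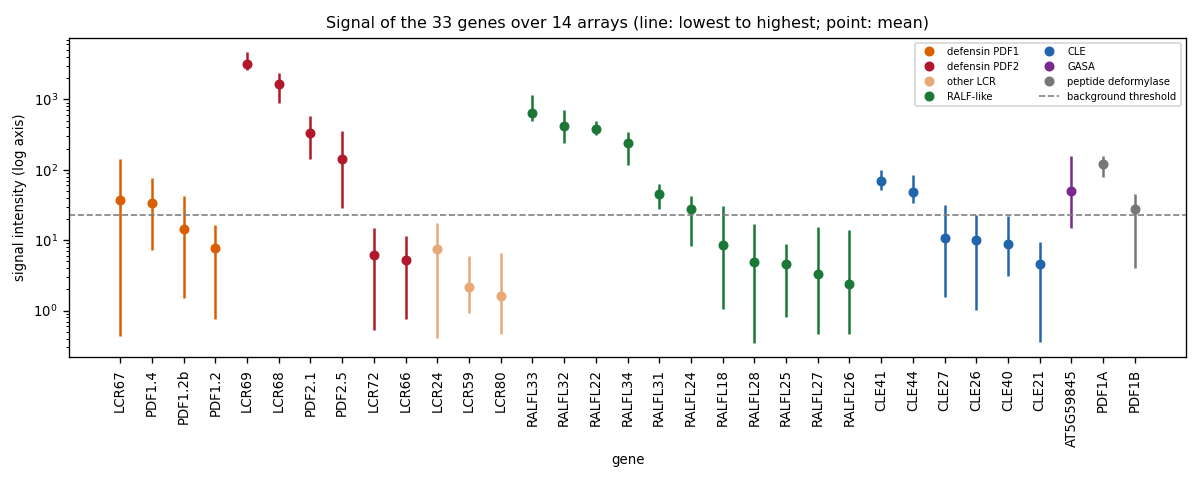
Signal of the 33 genes over the 14 arrays (vertical log axis, intensity in arbitrary units), coloured by family, with a line from the lowest to the highest array, a point at the mean and the background threshold of 23.0 dashed. The whole line of 12 genes lies above the threshold, and 14 genes were above it on every array of no group.

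Changes were tested as log2(signal + 6.30) with limma over the 15605 probe sets that passed the filter, with p-values adjusted by Benjamini-Hochberg over all of them and a call at an adjusted p under 0.05. Every log2 change and fold below is on that scale, which understates the change of dim genes. Against control, 2 of the 19 tested genes were called after 12 h of estradiol (1 higher, 1 lower), where 4.88% of all tested probe sets were called, 2.36% higher and 2.52% lower. After 12 h of zeatin 2 were called, both lower, against 7.54% of all probe sets (3.21% higher, 4.33% lower). After 24 h of estradiol 3 were called (1 higher, 2 lower), against 3.81% (2.28% higher, 1.53% lower), and after 24 h of zeatin 1, lower, against 3.47% (2.15% higher, 1.32% lower). These counts are 10.5%, 10.5%, 15.8% and 5.26% of the 19 genes, and each of them rests on 3 genes or fewer. The 1 higher call at each estradiol time was AT5G59845, which was added to the name rule with earlier results of these data known. The estradiol shares are therefore not those of genes chosen by name alone. The median log2 change of the 19 genes was -0.12 after 12 h of estradiol and -0.12 after 12 h of zeatin, beside -0.0034 and -0.03 over all probe sets. At 24 h it was -0.21 after estradiol and -0.22 after zeatin, beside -0.09 and -0.06. The 24 h medians include CLE27, whose test against those controls is set aside below. The estradiol and zeatin comparisons at one time share their control arrays, so that like changes in both are not independent.

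**Figure D2:**
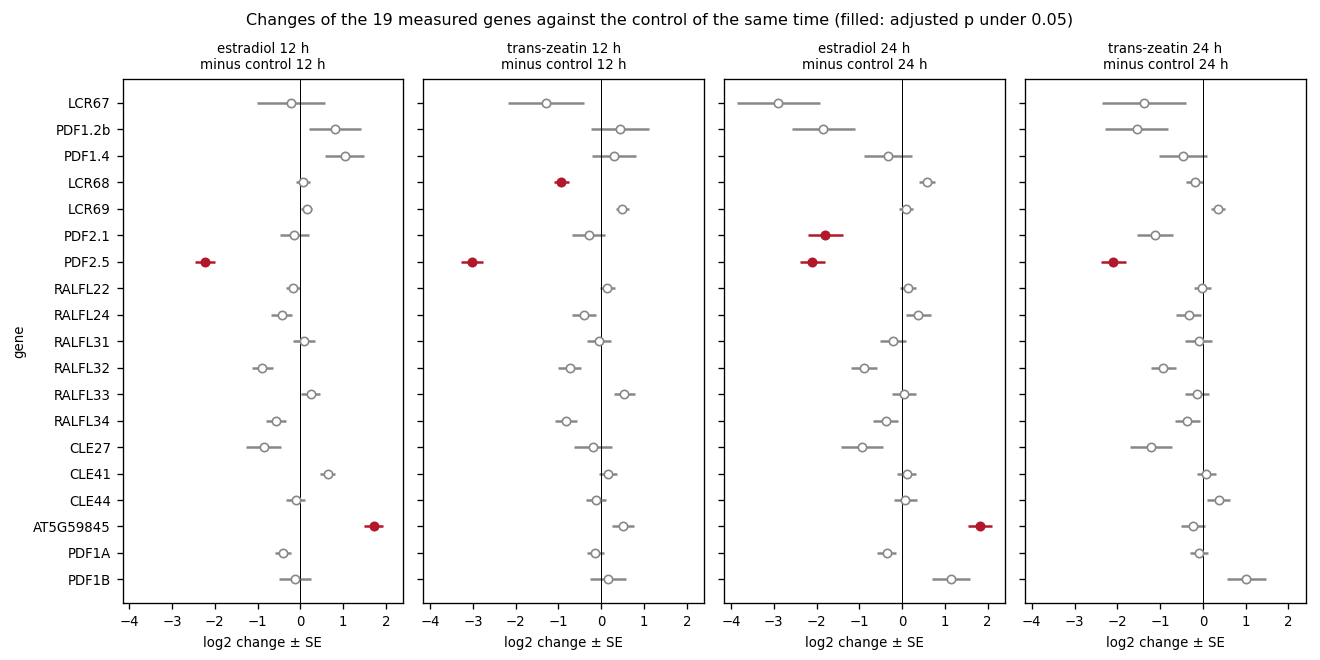
Log2 change from the control of the same time, on the log2(signal + 6.30) scale, for the 19 genes tested, with standard errors as bars and filled points for an adjusted p under 0.05. PDF2.5 is the gene with filled points in all 4 comparisons, near -2 to -3, and AT5G59845 has filled points near 1.7 and 1.8 for estradiol.

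PDF2.5 (AT5G63660), a defensin of the PDF2 group, fell in all 4 comparisons with control. In the 12 h arrays PDF2.5 had signals of 287, 321 and 353 under control conditions, 61.4, 85.5 and 46.5 under estradiol and 28.8 and 39.3 under zeatin. Its 24 h signals were 215 and 299 in controls, 54.9 and 54.0 under estradiol and 72.5 and 40.9 under zeatin. All 5 control arrays lay between 215 and 353 and all 9 treated arrays between 28.8 and 85.5, so the ranges did not meet, and every treated array was still above background. The means were 320.2 ± 32.8 (SD, n = 3) in control and 64.5 ± 19.7 (SD, n = 3) and 34.0 ± 7.39 (SD, n = 2) after 12 h of estradiol and zeatin. The log2 change at 12 h was -2.24 ± 0.23 (SE) with estradiol, 4.72-fold lower (limma, adjusted p = 9.8e-05). With zeatin at 12 h it was -3.02 ± 0.26 (SE), 8.14-fold lower (adjusted p = 1.7e-05). At 24 h it was -2.10 ± 0.28 (SE) with estradiol (adjusted p = 0.00078) and -2.09 ± 0.28 (SE) with zeatin (adjusted p = 0.00067). Estradiol minus zeatin was 0.79 (adjusted p = 0.49; 95% interval 0.23 to 1.34) at 12 h and -0.01 (adjusted p = 1; interval -0.62 to 0.60) at 24 h, so neither difference was called. The change from 12 to 24 h in the effect was 0.14 for estradiol (adjusted p = 0.95) and 0.93 for zeatin (adjusted p = 0.48). With the 3′/5′ actin ratio in the fit, the log2 changes were -2.08, -2.84, -1.93 and -1.86 in the same order, and the adjusted p of the last rose to 0.097.

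AT5G59845, the 1 gene of the gibberellin-regulated GASA type found here, rose with estradiol at both times and was not called with zeatin at either. It was added to the name rule with earlier results of these data known. Its p-values are therefore not those of a gene chosen without them. AT5G59845 signals at 12 h were 19.9, 15.0 and 20.4 in controls, 78.4, 84.6 and 61.6 in the estradiol arrays and 26.0 and 31.5 in the zeatin arrays. After 24 h the values were 36.6 and 23.8 for control, 91.4 and 159 for estradiol and 27.2 and 22.1 for zeatin. The 5 estradiol arrays lay between 61.6 and 159, above all control arrays (15.0 to 36.6) and all zeatin arrays (22.1 to 31.5). No control 12 h array was above background, so that the 12 h estradiol change, 1.71 ± 0.23 (SE) in the fit (adjusted p = 0.00066), amounts to at least 2.75-fold higher. At 24 h the change was 1.82 ± 0.28 (SE), 3.54-fold higher (adjusted p = 0.0021). With zeatin the log2 changes were 0.51 at 12 h (adjusted p = 0.26) and -0.22 at 24 h (adjusted p = 0.76). The difference between the 2 treatments was tested directly: at 24 h estradiol exceeded zeatin by 2.04 ± 0.28 (SE), 4.12-fold (adjusted p = 0.021, 95% interval 1.44 to 2.65), with 1 of the 2 zeatin arrays above background. It was the 1 gene of the 19 called there, where 0.0449% of all probe sets were called, 7 in number. At 12 h the difference was 1.20 (adjusted p = 0.43), and 0 of the 19 genes were called by limma (5 had an unadjusted p under 0.05), with 0.00641% of all probe sets called. The share of all probe sets at an unadjusted p under 0.05 was not computed, so nothing is read from such counts here or below. The 24 h difference rested on few arrays: the adjusted p was 0.47 without estradiol 24 h replicate 2, and 0.15 and 0.27 without zeatin 24 h replicate 1 and 2. It was 0.059 with the 3′/5′ ratio in the fit. The control signal was 36.6 and 23.8 at 24 h against 19.9, 15.0 and 20.4 at 12 h, a log2 change of 0.55 (adjusted p = 0.34).

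**Figure D3:**
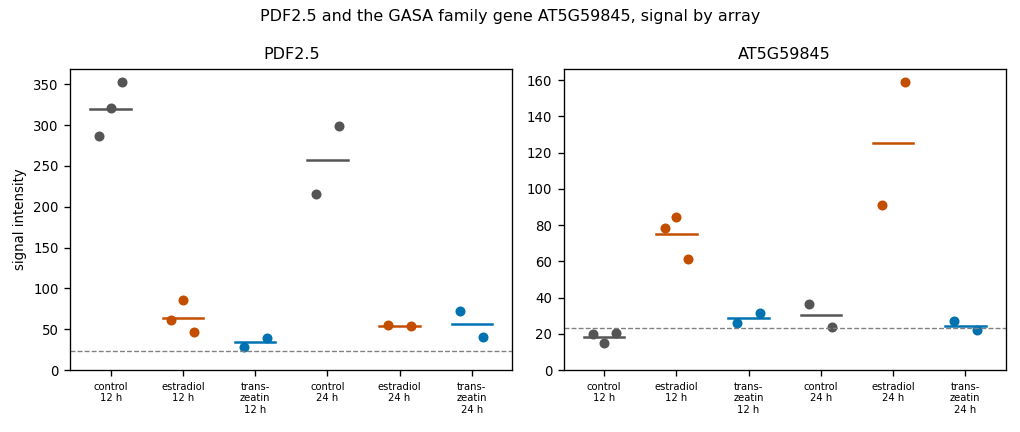
Signal (linear intensity, arbitrary units) in each array of the 6 groups for PDF2.5 and AT5G59845, with bars for group means and a dashed line at the background threshold of 23.0. PDF2.5 lies between 215 and 353 in the 5 control arrays and between 28.8 and 85.5 in the treated ones, and AT5G59845 lies between 61.6 and 159 in the estradiol arrays.

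LCR69, PDF2.1 and LCR68 are PDF2 defensins that lie close together on chromosome 2: PDF2.1 and LCR68 are adjacent, 1 protein-coding gene lies between LCR69 and PDF2.1, and LCR72 follows LCR68. LCR69, LCR68 and PDF2.1 were above background on every array, and LCR72 was not above it on any, at 14.9 or less. Their signals did not move alike. The LCR68 signal at 12 h was 2076, 1825 and 1723 in the control arrays, 1511, 2106 and 2331 with estradiol and 1079.7 and 877 with zeatin. The 24 h arrays gave 1439.7 and 1428 in the controls, 2313 and 2017 with estradiol and 1233 and 1272 with zeatin. All 4 zeatin arrays lay between 877 and 1272, below the other 10 arrays, which lay between 1428 and 2331. The change after 12 h of zeatin, -0.94 ± 0.17 (SE) or 1.91-fold lower, was called (adjusted p = 0.0067). The change after 24 h of zeatin was -0.19 (adjusted p = 0.67), and with estradiol the changes were 0.06 at 12 h and 0.59 at 24 h (adjusted p = 0.11). The direct differences between estradiol and zeatin were 1.00 at 12 h and 0.78 at 24 h (adjusted p = 0.38 and 0.38). The 12 h difference was called without estradiol 12 h replicate 1 (1.18, adjusted p = 0.02) and without both outlying 12 h arrays (adjusted p = 0.017), and the 24 h difference with the 24 h arrays alone (adjusted p = 0.039). The rise with 24 h of estradiol was called without estradiol 12 h replicate 1 (adjusted p = 0.044), without both outlying arrays (0.032) and with the 24 h arrays alone (0.023). The 12 h call was lost without zeatin 12 h replicate 2 (-0.79, adjusted p = 0.088) and with the 3′/5′ ratio in the fit (-1.10, adjusted p = 0.055).

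LCR69 is the brightest gene of its family on these arrays. In the 12 h arrays LCR69 had signals of 3061, 2582 and 2922 under control conditions, 3490.2, 2946 and 3041 under estradiol and 3423 and 4673 under zeatin. Its 24 h signals were 2584 and 2842 in controls, 2642 and 3114 under estradiol and 3674 and 3292 under zeatin. The zeatin arrays lay between 3292 and 4673 and the others between 2582 and 3490, so the ranges met. The changes with zeatin were 0.49 ± 0.15 (SE) at 12 h (adjusted p = 0.065) and 0.36 at 24 h (adjusted p = 0.28), neither past the threshold, and those with estradiol were 0.15 and 0.08. With quantile normalization the 12 h change with zeatin was called, at 0.49 (limma, adjusted p = 0.04). With arrays centred on their medians, another pseudocount or filter, no intensity trend, the replicate block or the 3′/5′ ratio in the fit it was not called. Without zeatin 12 h replicate 1, which left 1 array in that group, the LCR69 change was 0.71. PDF2.1 signals at 12 h were 431, 376 and 239 in controls, 199.8, 293 and 485 in the estradiol arrays and 431 and 174 in the zeatin arrays. After 24 h the values were 549 and 587 for control, 142 and 179 for estradiol and 218 and 307 for zeatin. PDF2.1 fell after 24 h of estradiol, by 1.79 ± 0.42 (SE) or 3.46-fold (adjusted p = 0.028). The 12 h groups overlapped widely, with changes of -0.15 for estradiol and -0.29 for zeatin, and the 24 h change with zeatin was -1.11 (adjusted p = 0.18). The fall is set against the 2 highest arrays of the gene, those of the control 24 h group, and the difference between the 24 h and 12 h estradiol effects was not called (-1.64, adjusted p = 0.4). Without any 1 of the 4 arrays compared the adjusted p was 0.11 to 0.17, and with the 3′/5′ ratio in the fit it was 0.13. The size of the change stayed between -1.95 and -1.63 over all alternatives.

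**Figure D4:**
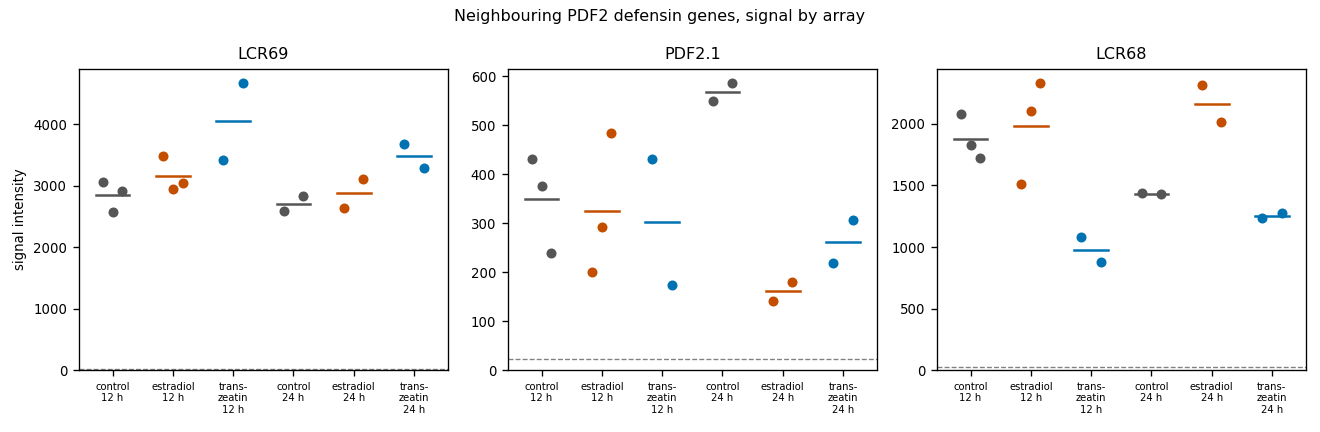
Signal (linear intensity, arbitrary units, each axis from 0) of the neighbouring defensin genes LCR69, PDF2.1 and LCR68 in each array, with bars for group means and the background threshold of 23.0 dashed. The 4 zeatin arrays of LCR68 lie between 877 and 1272, below the other 10, whereas those of LCR69 reach 4673.

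The PDF1 defensins were dim and uneven. LCR67, also known as PDF1.1, was the brightest of them. The LCR67 signal at 12 h was 65.4, 0.541 and 17.0 in the control arrays, 36.2, 0.432 and 18.7 with estradiol and 4.93 and 1.18 with zeatin. The 24 h arrays gave 109 and 141 in the controls, 1.97 and 31.4 with estradiol and 35.5 and 54.3 with zeatin. Within the control 12 h group 1 array was above background and another was at 0.541, so the replicates of that group spanned most of the gene's range outside the control 24 h group. None of its changes was called: -1.30 after 12 h of zeatin, -2.89 and -1.38 after 24 h of estradiol and zeatin (adjusted p = 0.41, 0.12 and 0.52). Both control 24 h arrays lay above all other arrays of the gene, yet the change between control times was 2.54 (adjusted p = 0.22). PDF1.2b was also highest there, with 40.9 and 42.7 in the control 24 h arrays, 1.80 and 15.9 after estradiol and 27.1 and 1.80 after zeatin. Its probe set carries the suffix of sets that can bind transcripts of related genes, so its signal may include other PDF1 transcripts. With estradiol at 24 h it was not called (-1.84, at least 1.64-fold lower, adjusted p = 0.2), nor with zeatin (-1.55, adjusted p = 0.3). PDF1.4 had 76.3, 55.6 and 39.2 after 12 h of estradiol against 51.7, 20.4 and 11.1 in control, a log2 change of 1.04 (adjusted p = 0.22) between overlapping groups. PDF1.2, the usual marker of jasmonate and ethylene defence, was never above 16.5. No probe set with 1 named gene was at hand for the 9 other jasmonate, ethylene and salicylate markers listed. LCR24, LCR59 and LCR80 stayed at 17.3, 6.07 and 6.59 or lower.

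Of the RALFL genes, 6 of 11 were tested and 0 were called against control by limma in any of the 4 comparisons, with 2, 2, 1 and 1 at an unadjusted p under 0.05 after 12 h of estradiol, 12 h of zeatin, 24 h of estradiol and 24 h of zeatin. RALFL33 was the brightest. In the 12 h arrays RALFL33 had signals of 522, 659 and 494 under control conditions, 659.7, 638 and 666 under estradiol and 574 and 1139 under zeatin. Its 24 h signals were 614 and 606 in controls, 496 and 805 under estradiol and 589 and 524 under zeatin. The highest array was zeatin 12 h replicate 2, at 1139, while both 24 h zeatin arrays lay below both 24 h controls, and its changes lay between -0.13 and 0.54. Without zeatin 12 h replicate 1, which left that array alone in its group, the 12 h zeatin change was called at 1.03 (adjusted p = 0.022). The genes that follow were chosen after their values were seen. RALFL32 signals at 12 h were 654, 696 and 396 in controls, 249, 320.4 and 344 in the estradiol arrays and 404 and 279 in the zeatin arrays. After 24 h the values were 659.6 and 529.8 for control, 414 and 241 for estradiol and 339 and 282 for zeatin. RALFL32 was lower in every treated group than in its control by 0.74 to 0.92 on the log2 scale, and the adjusted p was 0.053 after 12 h of estradiol and 0.12 in each of the other comparisons. Without control 12 h replicate 3, its lowest control array, the 12 h estradiol change was called at -1.14 (adjusted p = 0.018), and the 12 h zeatin change was called as well (adjusted p = 0.044). The 12 h estradiol change was also called with arrays centred on their medians (0.048) and without both outlying 12 h arrays (0.045). Leaving out any 1 of 4 arrays of other groups gave a call too (0.04 to 0.045). It was not called with quantile normalization, another pseudocount or filter, no intensity trend, the replicate block or the 3′/5′ ratio in the fit. Nor was it called without any 1 of the estradiol 12 h arrays, or with the 12 h arrays alone. Without both outlying 12 h arrays the 12 h zeatin change was called (0.031), as were the 24 h changes with estradiol and zeatin (0.049 and 0.045), and with the 24 h arrays alone both 24 h changes were called too (0.049 and 0.048). RALFL34, a peptide that acts through the receptor THESEUS1 and in lateral root initiation, had 319.8, 323 and 223 in the control 12 h arrays, 253, 171 and 159 after estradiol and 215 and 116 after zeatin. Its changes were -0.57 and -0.82 at 12 h and -0.38 and -0.37 at 24 h, with a lowest adjusted p of 0.078. The change after 12 h of zeatin was called without zeatin 12 h replicate 1 (-1.25, adjusted p = 0.021) and without both outlying 12 h arrays (adjusted p = 0.031). RALFL22 lay between 312 and 493 on all arrays. RALFL24 had 40.2, 42.4 and 40.6 in the control 12 h arrays and 16.9 and 18.8 at 24 h, below background (log2 change -0.97, at least 1.62-fold lower, adjusted p = 0.15). RALFL18 and RALFL25 to RALFL28 did not pass the filter, and RALFL25 and RALFL26 are neighbours on chromosome 3.

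Of the CLE genes, 3 of 6 were tested and 0 were called by limma against control. After 12 h of estradiol 2 had an unadjusted p under 0.05. The 1 with such a p after 24 h of zeatin was CLE27, whose test there is set aside below. CLE41 and CLE44 encode the peptide that keeps vascular stem cells undifferentiated, and CLE41 was the brighter in its own family. The CLE41 signal at 12 h was 52.4, 52.2 and 52.8 in the control arrays, 98.2, 87.5 and 71.2 with estradiol and 56.4 and 62.5 with zeatin. The 24 h arrays gave 88.6 and 55.1 in the controls, 79.5 and 72.5 with estradiol and 67.0 and 82.2 with zeatin. After 12 h of estradiol all 3 CLE41 arrays were above the 3 control arrays, with a change of 0.64 ± 0.18 (SE) (adjusted p = 0.061, 95% interval 0.25 to 1.02) that did not pass. It passed, at 0.043 to 0.044, when either control 24 h array was left out of the fit. The other changes of CLE41 were 0.16, 0.11 and 0.08. CLE44, named after its values were seen, had 84.9 and 51.4 after 24 h of zeatin against 49.5 and 50.1 in control, a log2 change of 0.37 (adjusted p = 0.53). CLE27 was above background in the control 24 h group alone, at 24.0 and 31.7, and its signal after 24 h of zeatin was 9.01 and 7.75. It entered the test through those control arrays alone, so nothing is read from its test against them. CLE40, a peptide of the root stem cell niche, CLE26 and CLE21 had highest signals of 22.4, 22.7 and 9.55 and were not tested.

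**Figure D5:**
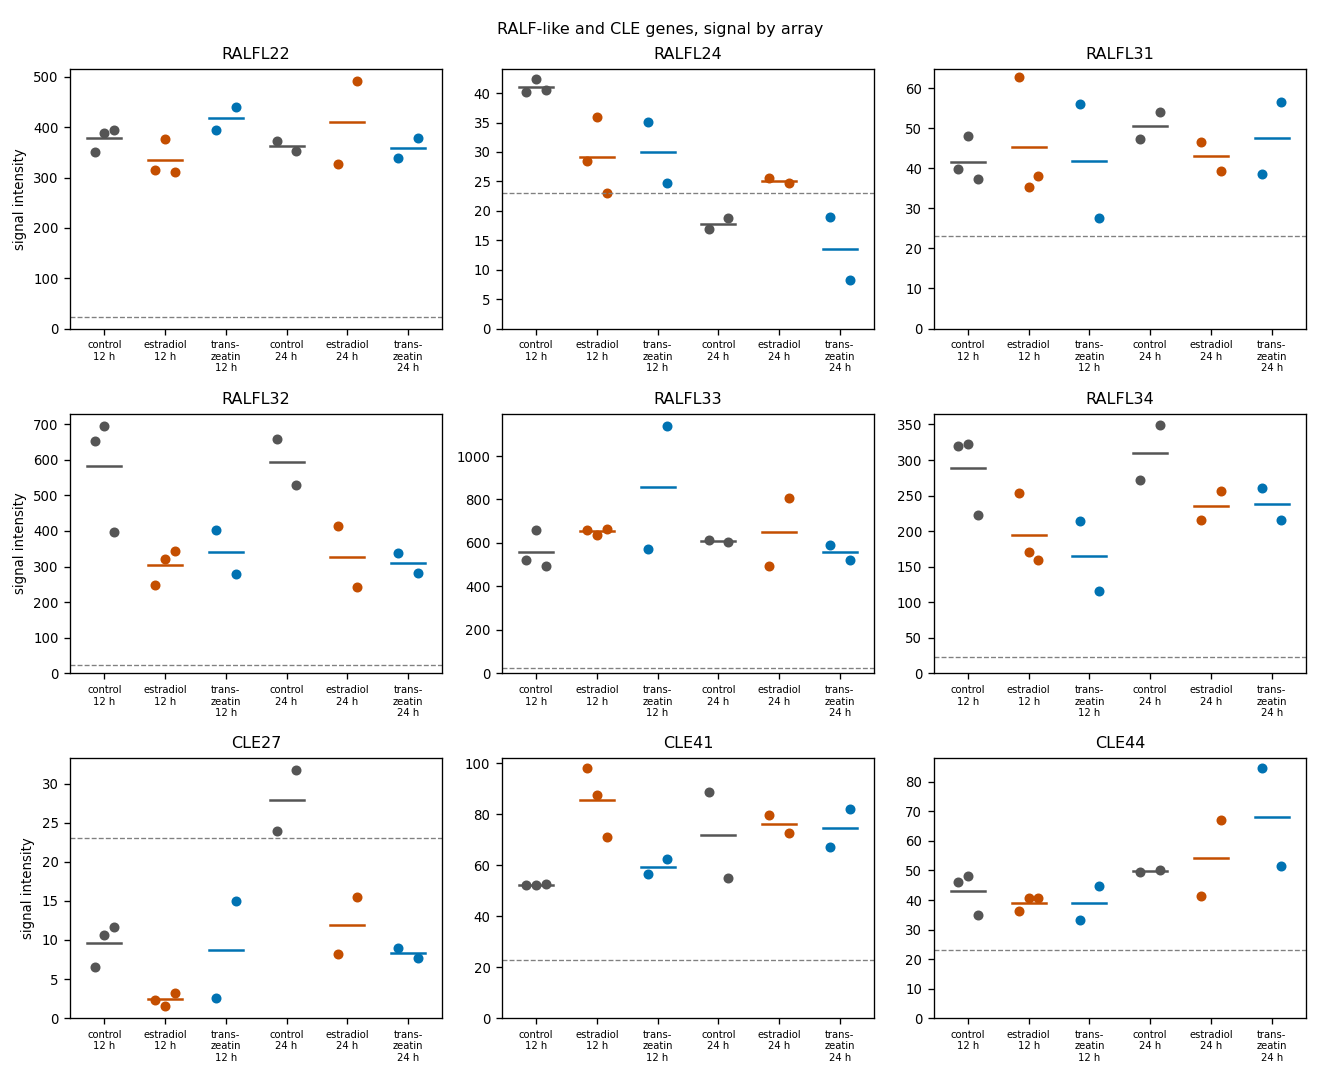
Signal (linear intensity, arbitrary units, each axis from 0) of the tested RALFL and CLE genes in each array, with bars for group means and a dashed line at the background threshold of 23.0. RALFL32 lies between 396 and 696 in the control arrays and between 241 and 414 in the treated arrays, and no gene shown was called against control.

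The deformylases, which entered by their symbols alone, had no called change. PDF1A, the brighter in its family, had 152, 126 and 97.4 in the control 12 h arrays, 78.1, 96.1 and 101 after estradiol and 129 and 95.3 after zeatin. At 24 h the PDF1A signal was 158 and 152, 123 and 116 and 139.6 and 152 in the control, estradiol and zeatin groups. Its changes lay between -0.41 and -0.09. PDF1B had 25.7 and 4.10 in the control 24 h arrays, 26.3 and 43.5 after estradiol and 31.1 and 30.1 after zeatin, with changes of 1.14 and 1.02 (adjusted p = 0.19 and 0.26). Between the control times 0 of the 19 genes were called by limma (6 at an unadjusted p under 0.05), against 0.468% of all probe sets. For the difference between the 24 h and 12 h effects, 0 were called for estradiol (3 at an unadjusted p under 0.05; 0.0769% of all probe sets called) and 0 for zeatin (2 at an unadjusted p under 0.05; 0% of all probe sets called).

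Other genes of these pathways were taken from fixed lists. Of 25 genes for peptide receptors and processing, 7 had a probe set of their own and 4 were tested: the RALF receptor FER, its relative THE1, the protease S1P and AT1G34110, which the reference files do not name. AT1G34110 fell after 12 h of zeatin (-0.91 ± 0.24 (SE), adjusted p = 0.034), from 108, 103 and 83.1 in the control arrays to 58.0 and 41.2. Its other changes were -0.75 after 12 h of estradiol, -0.81 after 24 h of estradiol and -0.89 after 24 h of zeatin (adjusted p = 0.058, 0.11 and 0.079). FER and THE1 were called in none of the 4 comparisons, with FER changes of 0.42 and 0.01 at 12 h and 0.58 and 0.77 at 24 h. Of 25 other secreted peptide genes, 5 had a probe set and 1, AT5G66815, was tested. At 12 h the controls had 22.9, 32.8 and 36.0, the estradiol arrays 2.42, 1.52 and 2.95 and the zeatin arrays 0.492 and 0.639, and all 24 h arrays were below background. It passed the filter through 2 control 12 h arrays alone, so nothing is read from its test against that group. Of 16 gibberellin genes 3 were tested, and the gibberellin receptor gene GID1B rose after 12 h of estradiol (0.72 ± 0.16 (SE), adjusted p = 0.02), from 127, 90.3 and 116 to 179.6, 162 and 217. Its change after 12 h of zeatin was 0.45 (adjusted p = 0.15). Estradiol minus zeatin at 12 h was 0.27 for GID1B (limma, adjusted p = 0.73), so the treatments were not called different. At 24 h the GID1B changes were 0.13 with estradiol and 0.24 with zeatin (limma, adjusted p = 0.78 and 0.59). The difference between its 24 h and 12 h estradiol effects was not called (-0.59, limma, adjusted p = 0.54). The other 2 gibberellin genes tested were not called. Of 10 type-A response regulators, which cytokinin induces, ARR15 and ARR16 were tested. ARR16 rose in all 4 comparisons, by at least 2.65-fold where it rose least, and ARR15 in all but that after 12 h of zeatin (adjusted p = 0.055).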

How the data were processed

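RNA from 14 root tip samples was hybridised to Affymetrix ATH1 arrays, 1 labelled sample per array. The authors deposited signal intensity on a linear scale for 22810 probe sets, made with MAS5 and GCOS per the submitters' processing notes (the sources used here give no versions). The mean signal after trimming 2% at each end was 100.01 on each array, so no further scaling was applied. Groups came from the labels. Gene names came from the platform annotation (13513 probe sets with 1 gene, 503 with several, 8794 with none) and RefSeq. Values were tested as log2(signal + 6.30, the 20th percentile) in R 4.3.3 with limma 3.58.1, with 1 mean per group over all 14 arrays and an intensity trend, on the 15605 probe sets above 23.0 on at least 2 arrays and without the 64 control sets. The fit had 8 residual and 5.96 prior degrees of freedom, its tests were two-sided, and it was tested on simulated data. Replicate numbers are shared between groups and were not taken to pair the samples in the main fit. Of 31 same-number pairs 3 had deviations correlated over 0.1 (range -0.271 to 0.189). In a group of 2 arrays the deviations mirror each other, so these correlations cannot settle whether the numbers pair the samples.

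Array values were given for genes called in any of the 9 comparisons and for the brightest of each family, and uncalled genes were named where the change from control reached 1 on the log2 scale; others are said to be chosen after their values were seen. The genes, the lists and the tests were chosen with earlier results of these data known. Alternatives concerned the scaling, pseudocount, filter, trend, replicate block, 3′/5′ actin ratio as a covariate, background threshold and arrays left out.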

Additional observations from a re-analysis of the deposited data

Results flagged for a closer look

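AT5G59845 differed between the treatments: after 24 h its signal was 91.4 and 159 with estradiol and 27.2 and 22.1 with zeatin. The difference itself, 2.04 on the log2 scale, was tested in limma's fit and passed (adjusted p = 0.021), with both estradiol arrays above both zeatin arrays. The gene was added to the name rule with earlier results of these data known, so this p-value is not independent support. Over 25 alternatives the difference lay between 1.66 and 2.42, and 6 of them lost the call. Among these were the fits without estradiol 24 h replicate 2 and without either zeatin 24 h array. Within groups of 2 or 3 arrays, a single array far from the others cannot be told from ordinary spread.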

How the results depend on the processing

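Of the 9 called changes of single genes, recomputed as 225 values under the alternatives, 209 kept their direction and call, 16 kept the direction only and 0 reversed; of 10 uncalled changes of at least 1, 246 of 249 values stayed uncalled and 3 became called (LCR67 after 24 h of estradiol and PDF2.1 after 24 h of zeatin with the 24 h arrays alone, and PDF1B after 24 h of estradiol without control 24 h replicate 1). The number of the 19 genes called (2, 2, 3 and 1 against control, after 12 h of estradiol, 12 h of zeatin, 24 h of estradiol and 24 h of zeatin) ranged over 2 to 3, 1 to 5, 2 to 4 and 1 to 1 when each array was left out in turn; the 5 came without zeatin 12 h replicate 1 and the 1 without zeatin 12 h replicate 2. Without both outlying 12 h arrays it was 4 after 12 h of zeatin, 5 after 24 h of estradiol, 2 after 24 h of zeatin, and 1 between estradiol and zeatin at 12 h. With the arrays of that time alone, it was 6 after 24 h of estradiol and 3 after 24 h of zeatin, and 2 between the treatments at 24 h. With the 3′/5′ ratio added to the fit it was 1 after 12 h of zeatin, 0 after 24 h of zeatin and 0 between the treatments at 24 h. Between the treatments it ranged over 0 to 1 at 12 h and 0 to 1 at 24 h when arrays were left out, and at 24 h it was 0 without the filter and 0 with the replicate block, where AT5G59845 had an adjusted p of 0.072 and 0.091. The block also took the PDF2.1 call after 24 h of estradiol (adjusted p = 0.058), as did leaving out the trend (0.051). With the block RALFL34 was called after 12 h of zeatin (-0.97). Whether the replicate numbers pair the samples could not be settled. With the background threshold at the 50th percentile, 9 genes were above it after 12 h of zeatin in place of 15, and the other group counts were within 1.5 times of the main ones. Over all probe sets the called number was 762, 1176, 595 and 541 in the 4 comparisons with control, 173, 130, 197 and 78 with the covariate, and 332, 500, 1158 and 942 with the arrays of that time alone. Leaving out zeatin 12 h replicate 2 left 264 of the 1176. Where an array was left out, a group of 2 became 1 array assumed to vary like the others. Among the 249 values of uncalled changes, 24 are those of CLE27 after 24 h of zeatin, and nothing is read from them. No member had more than 1 probe set, so another choice of probe set gave no value. The cause of these shifts was not tested.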
